A study of Homo sapiens with 60 samples.

Results

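Heat shock proteins and chaperonins were followed as a list of 36 genes, chosen by symbol, out of 60675 gene rows in the deposited count table. All 36 were found and all passed the filter on low counts, which left 17919 genes to test. By role they were 2 transcription factors (HSF1 and HSF2), 6 genes of the HSP70 and HSP110 system, 5 J-domain proteins, 9 genes of the HSP90 system, 3 small heat shock proteins, 3 mitochondrial chaperones and the 8 subunits of the cytosolic chaperonin TRiC, also called CCT. Most act in the cytosol, while HSPA9, HSPD1 and HSPE1 are mitochondrial and the HSF proteins act in the nucleus.

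Heat shock proteins bind unfolded or partly folded proteins and keep them from aggregating. HSP70 works with J-domain proteins, which deliver clients, and passes many of them to HSP90 with the help of co-chaperones, while TRiC encloses newly made actin, tubulin and other proteins in a folding chamber. HSF1 is held inactive by chaperones in resting cells and, on heat or other protein damage, forms trimers that bind repeated nGAAn units near the start sites of inducible genes such as HSPA1A, HSPA1B, DNAJB1 and HSPB1. In gliomas, chaperones are abundant and HSP90 clients include many kinases.

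SW1783 cells, an established line from a human astrocytoma, were treated for 24 h before their RNA was sequenced. For the DMSO vehicle the labels state 0.1%, whereas the series text states 2%. No DMSO percentage is recorded for the drug and extract libraries. Drugs were thioridazine, a phenothiazine antipsychotic, and the PI3-kinase inhibitors wortmannin and LY294002, each at 10 µM. Hot-water extracts were made from the fungus Poria Cocos and from 5 plants: Paeoniae Radix (peony), Angelicae Gigantis Radix, Panax Ginseng, Glycyrrhizae Radix (licorice) and Atractylodis Rhizoma. Their high dose was 500, their medium dose 100 and their low dose 20 µg/mL by label, although the series text allows lower doses for toxic extracts. The 60 libraries formed 22 groups of 3 libraries, or of 2 in the 6 angelica and peony groups. Every group comes from the same cell line. From a longer list of astroglial markers, GFAP (0.08 CPM in vehicle), S100B (0.12), AQP4 (0.01) and ALDH1L1 (0.01) were close to 0. VIM (6017 CPM) and CD44 (2746 CPM) were high. Levels of the others on that list (SLC1A3, SLC1A2, ALDOC, NES and SOX9) and of markers of other cell types are not given here, so these values do not settle the identity of the line.

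Library totals ran from 19.45 to 30.87 M counts. Levels are given as CPM, counts scaled by TMM to a common library size, and changes as log2 fold changes ± SE. Calls of higher or lower rest on the quasi-likelihood test of edgeR and need a Benjamini-Hochberg adjusted p, over all genes tested, below 0.05. All sample titles begin with BatchA. The first part of the sample code differs between the vehicle, the drugs and each pair of extracts, and no label says what it stands for. Libraries that share it are called a set here. Set and treatment cannot be told apart against vehicle, whereas the doses of 1 extract share a set. All comparisons with vehicle use the same 3 vehicle libraries. Replicate 1 of atractylodes high (0.434) and replicate 3 of licorice medium (0.432) lay farther from the rest of their group than the median of 0.354 in groups of 3 (root mean square of log2 differences). In groups of 2 this distance is the same for both libraries and is larger by construction, with a median of 0.401: it was 0.455 for angelica low and 0.583 for peony high. Whether replicates were separate cultures is not stated, so the p-values reflect only how far these libraries spread, which may be technical.

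Most of the 36 genes were well expressed in vehicle. Per kilobase of exon, the highest levels were those of HSP90AB1 (613 CPM per kb), the constitutive cytosolic HSP90, followed by HSPA8 (278), the constitutive HSP70, HSP90AA1 (278), the inducible HSP90, and HSPB1 (242), also known as HSP27. The TRiC subunits lay between 45.6 (CCT2) and 109 (CCT6A) CPM per kb. CRYAB, a small heat shock protein that is abundant in astrocytes and lens, reached only 0.28 CPM per kb. Over all 22 groups, 35 of 36 genes differed in a test of any difference between groups, against 71.7% of all genes tested. DNAJA2 was the exception (adjusted p = 0.0546 in edgeR's quasi-likelihood test).

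Promoter sequences were examined because HSF1 and HSF2 read short repeats there. RefSeq windows of 300 bases on GRCh38.p14, from 250 before to 50 after a start site, were counted for 32 of the 36 genes. No window of HSF1, FKBP4, CRYAB or CCT6A entered the member counts, which does not show that these genes have no window. A pair of heat shock units facing each other or apart (GAANNTTC or TTCNNGAA, searched on both strands) occurred in 42.2% of the 45 member windows and in 13.5% of all 35116 windows. A run of 3 units (GAANNTTCNNGAA or TTCNNGAANNTTC, which contain the pairs) occurred in 15.6% of member windows and 0.49% of all windows. Among the 12 genes taken as HSF1-driven (HSPA1A, HSPA1B, HSPA8, HSPH1, HSP90AA1, DNAJA1, DNAJB1, DNAJB4, HSPB1, BAG3, CHORDC1 and CRYAB), 66.7% of the windows held a pair and 26.7% a run of 3. TRiC windows held a pair in 33.3% and a run of 3 in 0 of 9. Stretches of 60 bases are shown for genes that moved in different ways below, with every matched unit in capitals, read 5′ to 3′ on the gene's strand. The first 5 hold a run of 3 units or more, and the other 4 a single pair.
HSP90AA1 (chr14:102087097-102087156, minus strand): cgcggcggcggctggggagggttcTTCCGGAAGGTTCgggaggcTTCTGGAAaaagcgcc
HSPA8 (chr11:123062156-123062215, minus strand): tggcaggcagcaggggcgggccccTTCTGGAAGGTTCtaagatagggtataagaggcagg
CHORDC1 (chr11:90223064-90223123, minus strand): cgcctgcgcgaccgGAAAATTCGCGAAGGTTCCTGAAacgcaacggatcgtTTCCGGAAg
DNAJB6 (chr7:157336849-157336908, plus strand): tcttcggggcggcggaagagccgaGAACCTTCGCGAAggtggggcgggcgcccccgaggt
HSPD1 (chr2:197500031-197500090, minus strand): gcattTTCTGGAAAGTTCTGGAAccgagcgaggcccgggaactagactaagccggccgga
HSPA1A (chr6:31815411-31815470, plus strand): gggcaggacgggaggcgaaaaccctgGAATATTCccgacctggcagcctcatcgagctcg
HSPA1B (chr6:31827607-31827666, plus strand): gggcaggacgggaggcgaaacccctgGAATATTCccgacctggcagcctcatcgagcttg
HSPA9 (chr5:138575372-138575431, minus strand): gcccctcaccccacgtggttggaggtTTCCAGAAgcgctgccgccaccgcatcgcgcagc
TCP1 (chr6:159789793-159789852, minus strand): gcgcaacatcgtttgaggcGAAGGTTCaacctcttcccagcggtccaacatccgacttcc
The HSPA1A and HSPA1B windows were identical at 277 of 299 bases (92.6%), at a shift of 1 base. The transcribed parts of these neighbours on chromosome 6 (31815464 to 31817946 and 31827735 to 31830255) are near-identical as well, so reads could be divided between them by estimation, and results are also given for their sum.

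The drug comparisons asked what 2 PI3-kinase inhibitors and an antipsychotic did to the chaperones. In all 3, most of the list was lower than in vehicle. With wortmannin 25 of 36 genes fell and 2 rose, where 31.7% of all genes tested changed (15.4% higher and 16.4% lower). With LY294002 27 fell and 3 rose (39.3% of all genes, 19.4% higher and 19.9% lower), and with thioridazine 27 fell and 3 rose (48.4% of all genes, 24.6% higher and 23.8% lower). The median change of the 36 was -0.25, -0.23 and -0.32, beside 0.02 for all genes in each comparison. As in the plot of the 3 drugs by gene, the falls were gathered in the HSP90 system and TRiC, while the HSP70 group was mixed. In RNA from whole cultures, fewer cells with a transcript and less of it per cell cannot be told apart.

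**Figure D1:**
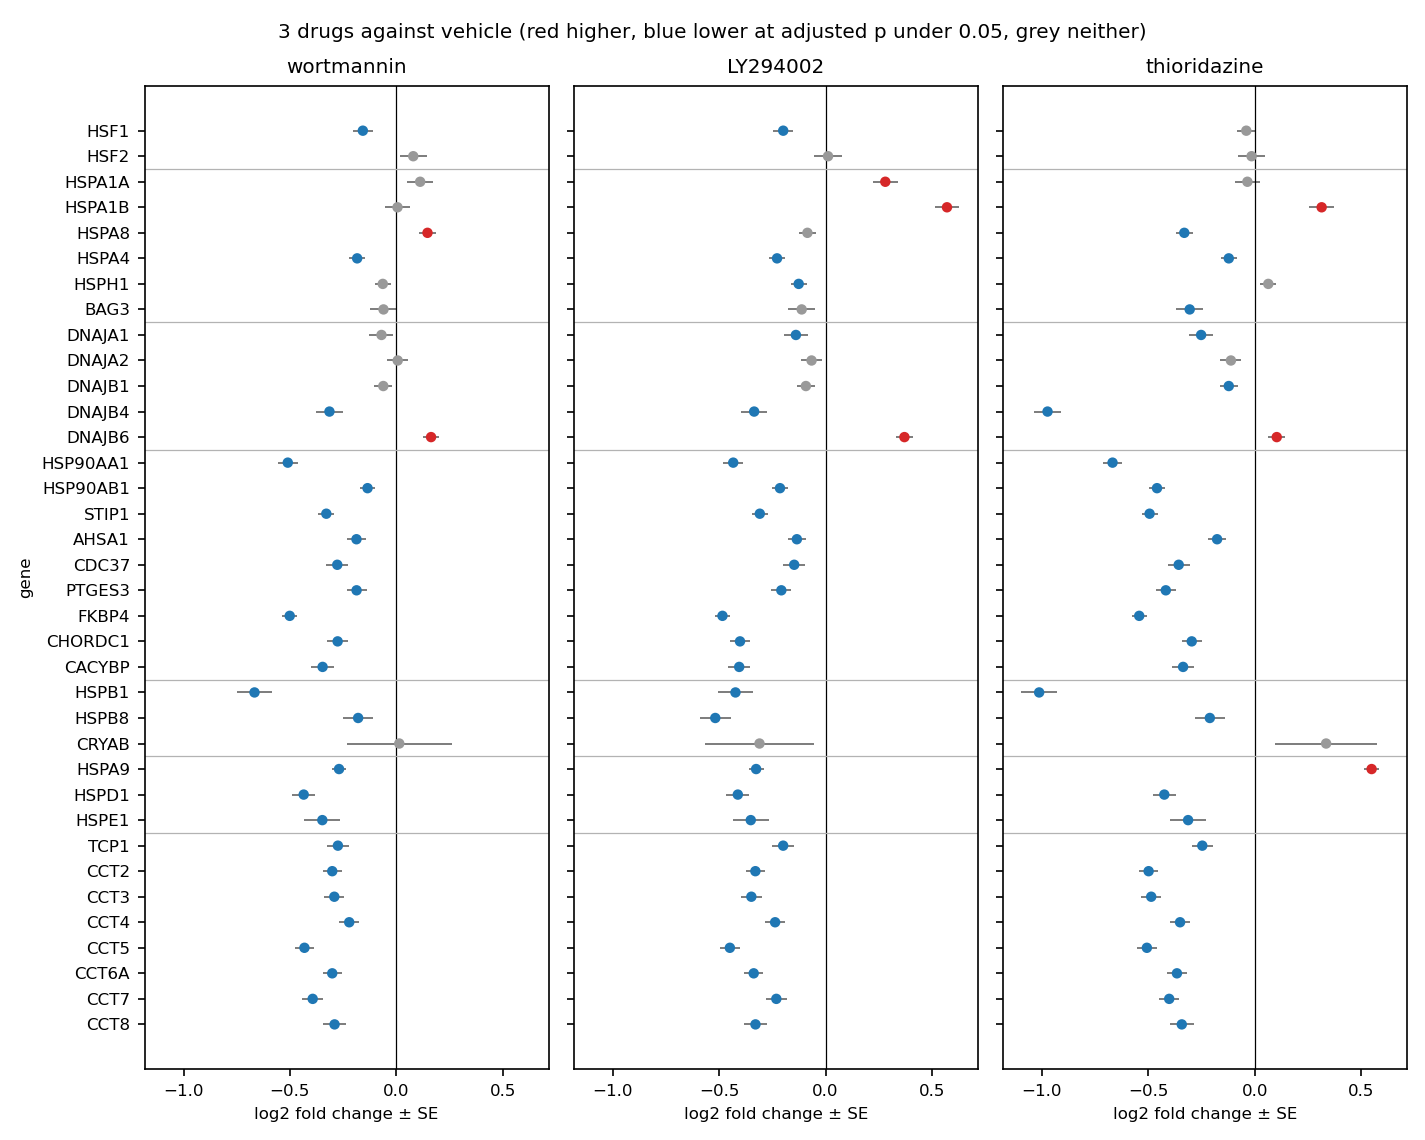
Log2 fold change against vehicle (horizontal axis, ± SE) of the 36 genes (vertical axis, ordered by role, horizontal lines between roles) with wortmannin, LY294002 and thioridazine, 3 libraries each. Red points were higher and blue points lower at an adjusted p below 0.05, and grey points did not pass. All 9 HSP90 system genes and all 8 TRiC subunits lie below 0 with each drug, and HSPA9 lies below 0 with the inhibitors and at 0.55 with thioridazine.

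Of the transcription factors, HSF1 stood at 80.9, 80.9 and 79.6 CPM in the vehicle libraries, at 69.2, 75.0 and 72.2 with wortmannin and at 66.9, 72.6 and 70.8 with LY294002. Both inhibitor groups lay wholly below vehicle, by 0.16 ± 0.05 (adjusted p = 0.00575) and 0.20 ± 0.05 (adjusted p = 0.000412). With thioridazine the HSF1 libraries, at 76.4, 77.9 and 80.5 CPM, overlapped vehicle and the change of -0.04 did not pass. HSF2, the second factor, kept between 21.7 and 23.9 CPM in all vehicle and drug libraries and passed with none of the drugs.

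In the HSP70 group the inducible pair stood apart from its constitutive relative. HSPA1B had 108, 106 and 118 CPM in vehicle and 146, 173 and 175 CPM with LY294002, with no overlap, a rise of 0.57 ± 0.06 (adjusted p = 1.32e-11). Its neighbour HSPA1A rose by 0.28 ± 0.06 with LY294002, from 149, 152 and 160 to 178, 192 and 190 CPM. Counted as 1 gene, the pair rose by 0.41 ± 0.05 with LY294002 (adjusted p = 2.24e-09). With thioridazine HSPA1B rose by 0.31 ± 0.06, to 138, 136 and 140 CPM, while HSPA1A gave -0.04 and did not pass. The sum of both then changed by 0.12 ± 0.05 (adjusted p = 0.0414). The files do not show how reads were divided between the copies. HSPA1A made up 57.4 to 58.9% of the pair's CPM in vehicle, 59.1 to 61.2% with wortmannin, 52.0 to 55.0% with LY294002 and 51.1 to 53.1% with thioridazine. Wortmannin left HSPA1B at 111, 106 and 116 CPM, overlapping vehicle, and the summed change of 0.07 ± 0.05 did not pass. HSPA1A lay above every vehicle library with wortmannin, at 161, 168 and 170 CPM, but was not called. In that comparison 49.1% of all genes tested did not overlap.

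HSPA8, on chromosome 11 (123057489 to 123063230), moved in opposite directions. It had 1343, 1353 and 1348 CPM in vehicle, 1490, 1471 and 1514 with wortmannin and 1091, 1120 and 1003 with thioridazine. Neither drug group overlapped vehicle, and the changes were 0.15 ± 0.04 (adjusted p = 0.0023) and -0.33 ± 0.04 (adjusted p = 1.79e-10). LY294002 gave -0.09, which did not pass. HSPA4, an HSP110-type exchange factor, fell with all 3 drugs, by 0.18 ± 0.04, 0.23 ± 0.04 and 0.12 ± 0.04 in the order wortmannin, LY294002 and thioridazine. HSPH1, the heat-inducible HSP110, fell by 0.13 ± 0.04 with LY294002 only among the calls. BAG3, which links HSP70 to selective autophagy, fell with thioridazine alone among the calls, by 0.31 ± 0.06, from 84.5, 78.5 and 82.1 to 66.7, 67.2 and 64.4 CPM.

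Among the J-domain proteins, DNAJB4 fell and DNAJB6 rose with each drug. DNAJB4 (chromosome 1, 77979175 to 78017964) had 84.4, 84.2 and 82.9 CPM in vehicle and 45.1, 40.4 and 42.4 CPM with thioridazine. That fall of 0.97 ± 0.06 (adjusted p = 4.41e-19) left every treated library far below every vehicle library, and wortmannin and LY294002 lowered the gene by 0.31 ± 0.06 and 0.34 ± 0.06. DNAJB6, which suppresses aggregation of polyglutamine proteins, went from 136, 140 and 139 CPM in vehicle to 175, 182 and 180 with LY294002 (0.37 ± 0.04, adjusted p = 3.88e-11), to 152, 157 and 155 with wortmannin (0.16 ± 0.04) and to 150, 148 and 147 with thioridazine (0.10 ± 0.04, adjusted p = 0.0266). All 3 drug groups lay above vehicle. The thioridazine call for DNAJB6 was lost without vehicle replicate 1 or thioridazine replicate 1 and with no filter on low counts, at 0.10 in each case. DNAJB1, the main heat-inducible partner of HSP70, gave -0.06, -0.09 and -0.12, of which the last passed (SE 0.04, adjusted p = 0.0157). DNAJA2 passed with none of the drugs.

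HSP90 and its co-chaperones were lower with every drug. HSP90AA1 (chromosome 14, 102080738 to 102139699) had 1426, 1518 and 1428 CPM in vehicle, 1056, 1124 and 1056 with LY294002 and 939, 939 and 873 with thioridazine, while the wortmannin libraries stood at 1014, 1025 and 1031. No drug library reached the lowest vehicle library, and the falls were 0.43 ± 0.05 with LY294002 and 0.67 ± 0.05 with thioridazine (adjusted p = 2.98e-18). The constitutive HSP90AB1 fell less, by 0.14 ± 0.04, 0.21 ± 0.04 and 0.46 ± 0.04 in the order wortmannin, LY294002 and thioridazine. FKBP4, an immunophilin that carries steroid receptors with HSP90, had 184, 180 and 180 CPM in vehicle, and between 123 and 136 CPM in all 9 drug libraries. Its falls were alike, 0.50 ± 0.03, 0.48 ± 0.03 and 0.54 ± 0.03. STIP1, the adaptor between HSP70 and HSP90, fell by 0.33, 0.31 and 0.49 (SE 0.04 each), CDC37, which loads kinases onto HSP90, by 0.28, 0.15 and 0.36 (SE 0.05 each), and AHSA1, which stimulates the HSP90 ATPase, by 0.19, 0.14 and 0.18 (SE 0.04 each). PTGES3 (p23), CHORDC1 and CACYBP completed the 9 of 9.

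Among the small heat shock proteins HSPB1 (chromosome 7, 76302544 to 76304295) changed most with wortmannin and thioridazine, and HSPB8 with LY294002. Its vehicle libraries had 394, 398 and 396 CPM. With wortmannin they were 243, 252 and 254, with LY294002 279, 314 and 293, and with thioridazine 187, 197 and 205 CPM. None of these overlapped vehicle, and the falls were 0.67 ± 0.08 (adjusted p = 1.38e-08), 0.42 ± 0.08 (adjusted p = 4.92e-05) and 1.01 ± 0.08 (adjusted p = 4.87e-14). HSPB8, the partner of BAG3, fell most with LY294002, by 0.52 ± 0.07, from 21.8, 22.7 and 22.4 to 13.5, 16.6 and 16.6 CPM, and by 0.18 ± 0.07 and 0.21 ± 0.07 with wortmannin and thioridazine. CRYAB stayed between 0.65 and 1.17 CPM in these libraries and passed with no drug.

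The mitochondrial chaperones split with thioridazine. HSPA9 (mortalin; chromosome 5, 138553756 to 138575724), the HSP70 that pulls proteins into the matrix, had 414, 432 and 424 CPM in vehicle and 627, 614 and 615 CPM with thioridazine, a rise of 0.55 ± 0.03 (adjusted p = 6.76e-20). The same gene fell to 346, 354 and 353 CPM with wortmannin and to 322, 345 and 346 CPM with LY294002, by 0.27 ± 0.03 and 0.33 ± 0.03. HSPD1 and HSPE1, the matrix chaperonin HSP60 and its lid HSP10, fell with all 3 drugs: HSPD1 by 0.44 ± 0.05, 0.41 ± 0.05 and 0.43 ± 0.05, and HSPE1 by 0.35 ± 0.09, 0.35 ± 0.09 and 0.31 ± 0.09. These 2 genes overlap on opposite strands of chromosome 2 (197486581 to 197516737 and 197499994 to 197503457), and no source used here gives the strand setting of the counting, so some of their reads cannot be told apart. Of 9 further genes of mitochondrial protein quality control, none rose and 7 fell with wortmannin (15.4% and 16.4% of all genes), and none rose and 8 fell with LY294002 (19.4% and 19.9%). With thioridazine 2 rose and 3 fell, near the 24.6% and 23.8% over all genes: LONP1, the matrix protease, rose by 0.67 ± 0.05 from 79.2 to 126 CPM, while TRAP1, the mitochondrial HSP90, fell by 0.50 ± 0.05 from 113 to 80.3 CPM.

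TRiC subunits moved as a block. All 8 fell with each drug, with medians of -0.30, -0.33 and -0.38, and ranges of -0.43 to -0.22, -0.45 to -0.20 and -0.51 to -0.25. CCT5 (chromosome 5, 10249921 to 10266412) had 468, 494 and 472 CPM in vehicle, 351, 358 and 355 with wortmannin, 341, 360 and 349 with LY294002 and 345, 341 and 323 with thioridazine. No drug library overlapped vehicle, at changes of -0.43 ± 0.05, -0.45 ± 0.05 and -0.51 ± 0.05 (adjusted p = 5.65e-14 for the last). TCP1, the subunit that gave the complex its name, fell least with LY294002 and thioridazine, by 0.20 ± 0.05 and 0.25 ± 0.05, and by 0.27 ± 0.05 with wortmannin. The 12 HSF1-driven genes had medians of -0.06, -0.13 and -0.27 in the same comparisons. Of them 1, 2 and 1 were higher, beside 15.4%, 19.4% and 24.6% of all genes. Lower were 4, 6 and 8 of the 12, beside 16.4%, 19.9% and 23.8% of all genes, so this list fell beyond the background too. Without HSPA1A and HSPA1B the LY294002 median of that list was -0.23. Prefoldin and other TRiC cofactors, a list of 15 genes of which 14 were tested, had 1 rise and 5 falls with wortmannin (15.4% and 16.4% of all genes), 4 and 3 with LY294002 (19.4% and 19.9%), and 3 and 5 with thioridazine (24.6% and 23.8%). PDCL3, a phosducin-like TRiC cofactor, fell by 0.44 ± 0.06 with wortmannin and by 0.40 ± 0.06 with thioridazine.

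**Figure D2:**
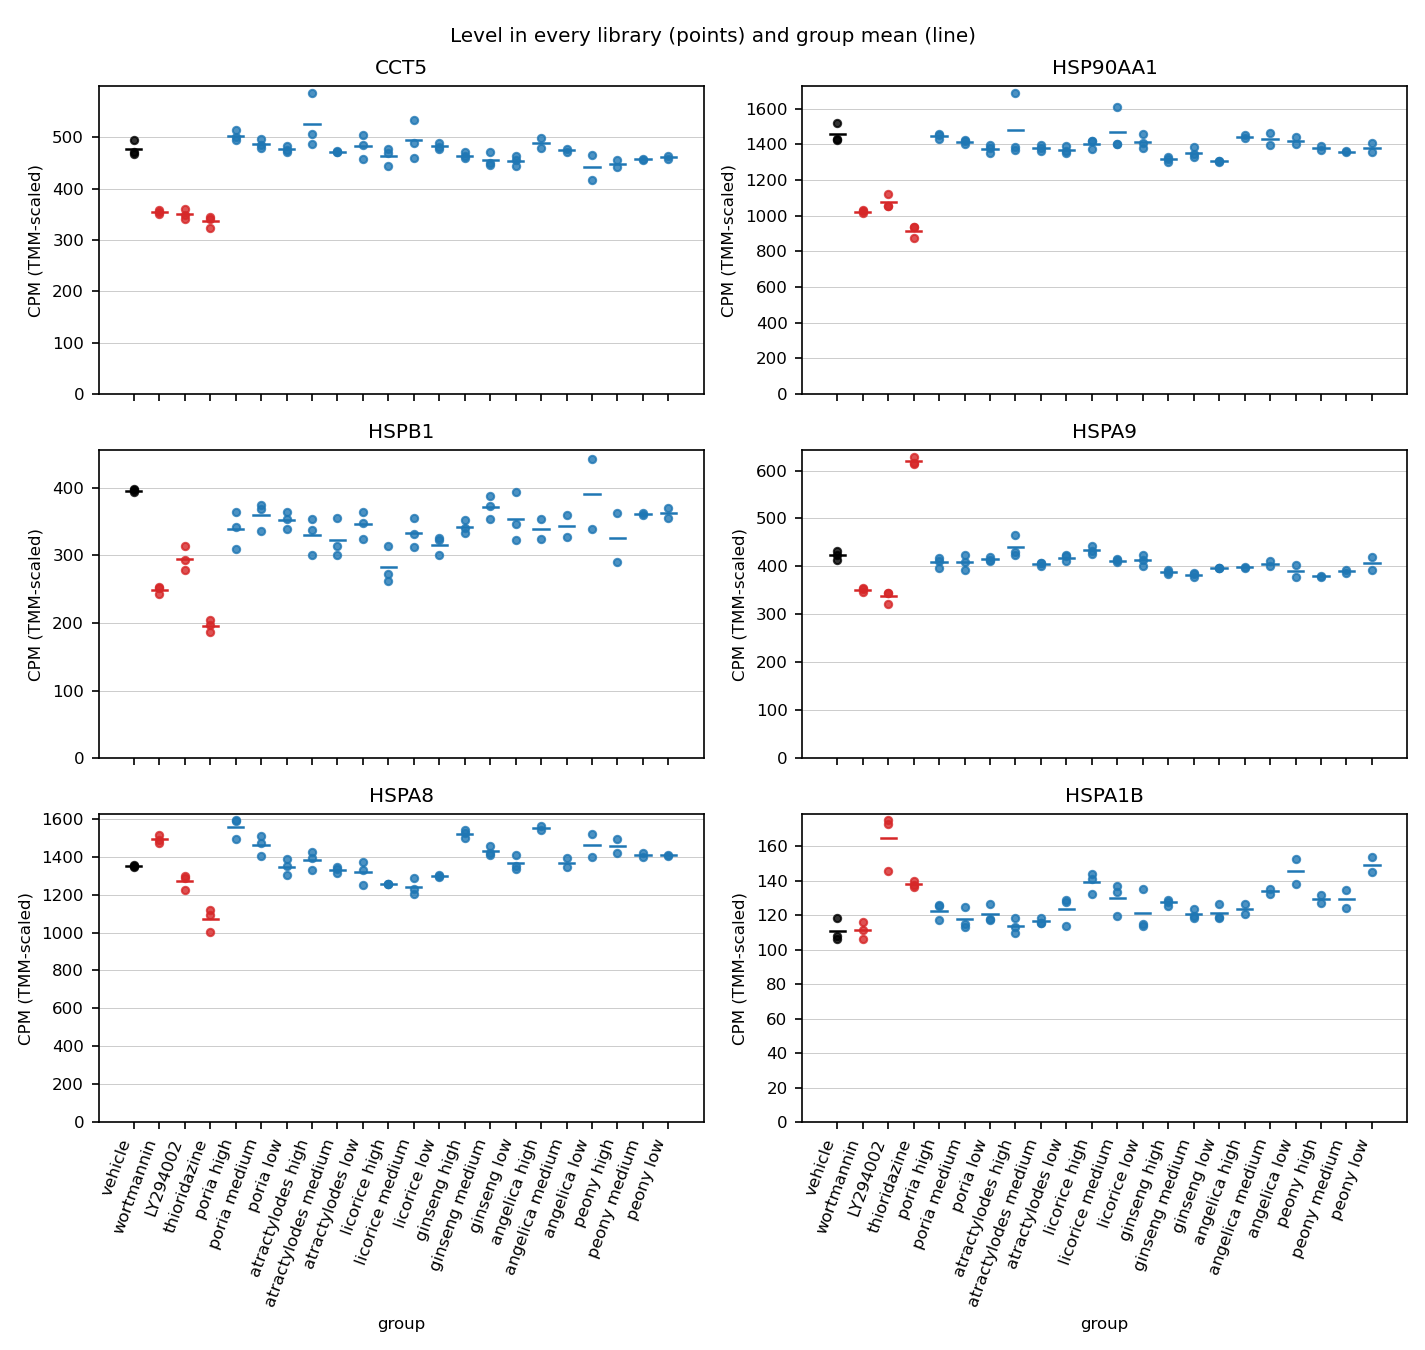
TMM-scaled CPM (vertical axis, from 0) of 6 genes in every library (points) with the mean of each group (line), by group on the horizontal axis: vehicle in black, drugs in red, extracts in blue. CCT5 and HSP90AA1 are low in the 9 drug libraries, HSPA9 is above 600 CPM in the thioridazine libraries only, and the vehicle libraries have high HSPB1 and low HSPA1B.

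Direct comparisons between drugs did not use the vehicle. Both PI3-kinase inhibitors differed in 7 of 36 genes, against 16.4% of all genes (8.79% higher and 7.57% lower): 2 were higher and 5 lower with wortmannin. HSPA1B was lower with wortmannin by 0.56 ± 0.06 (adjusted p = 1.19e-10; the pair summed, by 0.34 ± 0.05), DNAJB6 by 0.21 ± 0.04 and HSPA1A by 0.17 ± 0.06, while HSPB8 was higher by 0.34 ± 0.07 and HSPA8 by 0.23 ± 0.04. One of 8 TRiC subunits, CCT7, differed (-0.16 ± 0.05). The count was 4 without wortmannin replicate 1, without wortmannin replicate 2 or without LY294002 replicate 3. Thioridazine against LY294002 gave 6 higher and 16 lower genes, where 40.0% of all genes changed (19.5% higher and 20.4% lower), with HSPA9 higher by 0.87 ± 0.03 (adjusted p = 3.91e-28) and DNAJB4 lower by 0.64 ± 0.07 (adjusted p = 4.88e-12). HSP90AA1 was lower with thioridazine by 0.23 ± 0.05 and HSPB1 by 0.59 ± 0.08.

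The extract comparisons asked the same of 6 plant or fungal materials, and their chaperone changes were smaller. Over the 18 comparisons of an extract with vehicle, 26 of 36 genes were called at least once, beside 53.5% of all genes tested, and among calls of members with at least 1 CPM the change farthest from 0 was that of HSPB1 with licorice at the high dose (-0.48). The genes called in none were HSPA4, DNAJA1, DNAJA2, AHSA1, HSPB8, HSPD1, HSPE1, CCT2, CCT6A and CCT7. As the heat map of all comparisons with vehicle shows, no extract comparison called more than 4 of the 9 HSP90 system genes or 4 of the 8 TRiC subunits.

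**Figure D3:**
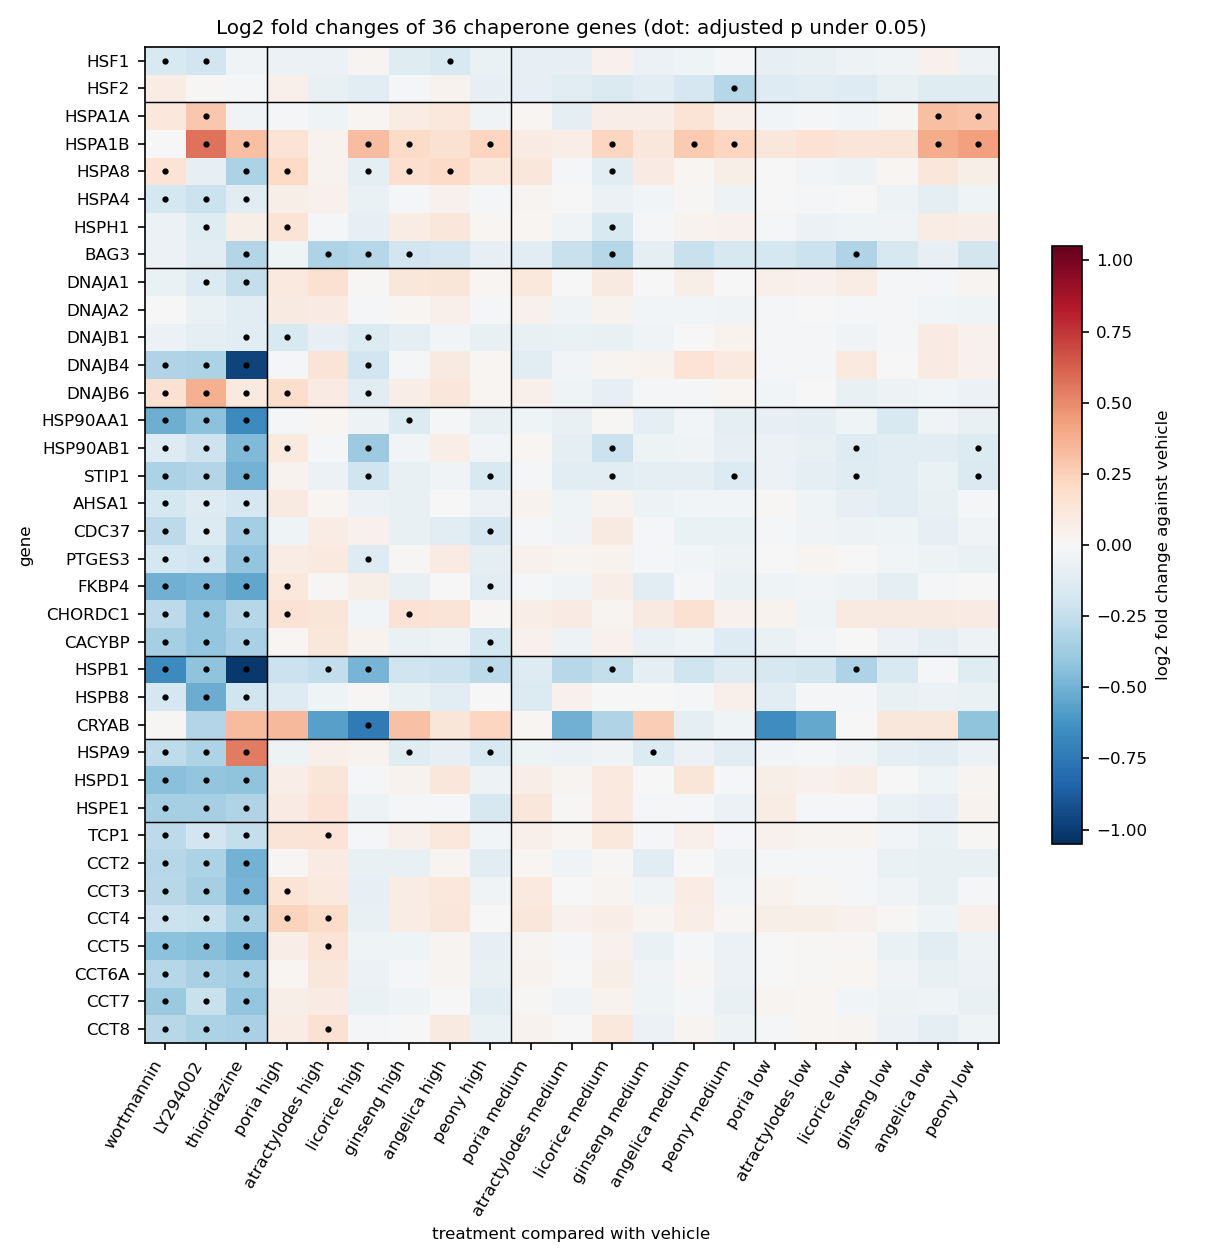
Log2 fold change against vehicle (colour, red higher, blue lower) of the 36 genes (rows, ordered by role) in 21 treatments (columns: 3 drugs, then the 6 extracts at the high, medium and low dose). Dots mark an adjusted p below 0.05; the left 3 columns are blue throughout the HSP90 and TRiC rows, the HSPA1B row is red or pale and the HSPB1 row blue or pale in every column.

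Poria at the high dose raised 8 genes and lowered 1, where 11.6% of all genes changed (5.17% higher and 6.41% lower). CCT4, a TRiC subunit, had 243, 252 and 235 CPM in vehicle and 293, 277 and 286 CPM with poria (0.23 ± 0.05, adjusted p = 0.000422), and HSPA8 had 1586, 1494 and 1594 CPM against 1343, 1353 and 1348 (0.21 ± 0.04, adjusted p = 0.000115). Both were above vehicle in every library. DNAJB6 rose by 0.18 ± 0.04, CHORDC1, an HSP90 co-chaperone with metal-binding domains, by 0.15 ± 0.05 and HSPH1 by 0.15 ± 0.04, while DNAJB1 fell by 0.16 ± 0.04 from 163, 161 and 161 to 148, 139 and 148 CPM. The sum of HSPA1A and HSPA1B did not pass (0.05 ± 0.05). The count was 5 without vehicle replicate 3 or without poria replicate 2. The calls of CHORDC1, without vehicle replicates 1 or 3 or poria replicates 2 or 3 (0.12 to 0.16), and of DNAJB1, without poria replicate 2 (-0.13), were lost. With no filter on low counts, HSPH1 (0.14) and CHORDC1 (0.15) no longer passed. Within the set, poria high against low dose gave 7 higher and 1 lower, against 5.51% of all genes (2.73% higher and 2.78% lower), with HSPA8 at 0.21 ± 0.04, DNAJB6 at 0.21 ± 0.04, HSP90AB1 at 0.16 ± 0.04 and DNAJB1 at -0.14 ± 0.04. CRYAB, near the detection limit, had 1.17, 0.997 and 1.07 CPM with the high and 0.644, 0.557 and 0.417 CPM with the low dose (1.00 ± 0.26), a call lost without high replicate 1 (0.94) or low replicate 3 (0.84). That count was 5 without replicate 1 of the high dose or replicate 3 of the low dose, and the DNAJB1 call was lost on leaving out any of the 6 libraries in turn. With no filter DNAJB1 (-0.14) and CRYAB (0.99) did not pass. In the endoplasmic reticulum the direction was the opposite: of 9 chaperones there, none rose and 8 fell with poria high (6.41% of all genes lower), DNAJB9, the J-domain partner of HSPA5, by 0.52 ± 0.09.

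Atractylodes at the high dose raised 4 genes, all TRiC subunits, and lowered 2, where 13.9% of all genes changed (7.24% higher and 6.63% lower). CCT4 rose by 0.19 ± 0.05 and TCP1 by 0.14 ± 0.05, beside CCT5 and CCT8. The CCT4 libraries had 299, 270 and 263 CPM, all above vehicle, and replicate 1, which lay far from the rest of its group, was the highest for each of the 8 subunits (587, 506 and 488 CPM for CCT5). Without replicate 1 the changes of CCT4 and TCP1 were 0.13 and 0.06, neither passed, and the count of members called was 3. TCP1 was also lost without vehicle replicate 1 (0.14) or 3 (0.13), and with RLE size factors, no filter or only the groups compared (0.14 each). It was 2 without vehicle replicate 1 or 3, 10 without atractylodes replicate 2 and 12 without replicate 3. The falls were BAG3, from 84.5, 78.5 and 82.1 to 64.6, 63.5 and 67.6 CPM (-0.33 ± 0.06, adjusted p = 0.000199), and HSPB1 (-0.26 ± 0.08), whose call was lost without any 1 vehicle library (-0.26 to -0.25) or atractylodes replicate 2 (-0.20). Fitted on only the groups compared, CCT4 (0.19) and HSPB1 (-0.26) did not pass. High against low dose called CHORDC1 alone (0.17 ± 0.05), against 4.10% of all genes. That call was lost, at 0.11, without replicate 1 of the high dose, and also without high replicate 3 (0.17) or low replicates 1 (0.15) or 3 (0.18), and with no filter or only the groups compared (0.17 each), while 3 and 6 genes were called without high replicates 2 and 3.

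Licorice at the high dose lowered 10 genes and raised 1, where 30.9% of all genes changed (15.9% higher and 15.0% lower). HSPB1 fell by 0.48 ± 0.08, to 314, 263 and 272 CPM from 394 to 398, and HSP90AB1 (chromosome 6, 44246166 to 44253888) by 0.38 ± 0.04 (adjusted p = 1.61e-12), from 1814, 1852 and 1810 to 1405, 1397 and 1409 CPM. Neither overlapped vehicle. The inducible HSP90AA1 had 1374, 1420 and 1421 CPM and did not pass, so the 2 cytosolic HSP90 genes differed in their calls, though that difference was not tested. BAG3 fell by 0.30 ± 0.06, STIP1 by 0.21 ± 0.04 and DNAJB4 by 0.20 ± 0.06, and no TRiC subunit passed. HSPA1B rose by 0.33 ± 0.06, to 144, 132 and 141 CPM, with the pair summed at 0.16 ± 0.05 (adjusted p = 0.0143). The count was 7 without vehicle replicate 2 or 3. Medium and low doses called 7 and 4 genes (25.2% and 3.29% of all genes), 1 of the 7 higher. HSP90AB1 stood at 1718, 1650 and 1628 CPM with the low dose, and the high dose lay below it by 0.25 ± 0.04 (adjusted p = 3.92e-07), in a contrast with 2 higher and 4 lower genes, against 18.2% of all genes (9.02% higher and 9.14% lower). DNAJB4 was also lower at the high than at the low dose, by 0.31 ± 0.06, and FKBP4 was higher by 0.12 ± 0.03. This count was 3 without low replicate 2 or high replicate 3, and the FKBP4 call was lost, at 0.09, without low replicate 3, and at 0.12 with no filter.

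Ginseng, angelica and peony at the high dose called 6, 2 and 7 genes, where 7.25%, 6.46% and 20.7% of all genes changed. The background by direction was 3.05% higher and 4.20% lower with ginseng, 2.94% higher and 3.53% lower with angelica and 10.3% higher and 10.4% lower with peony. HSPA8 rose with ginseng (0.17 ± 0.04), at 1496, 1524 and 1542 CPM, and with angelica (0.20 ± 0.04), at 1540 and 1561 CPM, all above the vehicle libraries. Ginseng also raised HSPA1B (0.20 ± 0.06; the pair summed, 0.13 ± 0.05, did not pass) and CHORDC1 (0.15 ± 0.05) and lowered BAG3 (-0.20 ± 0.06), HSP90AA1 (-0.15 ± 0.05) and HSPA9 (-0.13 ± 0.03). Each of these 5 was lost on leaving out at least 3 of the 6 libraries in turn, at 0.17 to 0.21 for HSPA1B, 0.12 to 0.16 for CHORDC1, -0.21 to -0.17 for BAG3, -0.16 to -0.12 for HSP90AA1 and -0.12 to -0.11 for HSPA9. With no filter CHORDC1 (0.15) and HSPA9 (-0.13) did not pass, and the count of 6 fell to between 1 and 3 whichever library was left out. With angelica HSF1 was lower, at 74.0 and 69.8 CPM (-0.16 ± 0.05). That call was lost without any 1 of the 5 libraries (-0.21 to -0.13) and with no filter (-0.16), HSPA8 was lost without angelica replicate 2 (0.19), and the count was 0 without that replicate and 1 without its replicate 1 or any 1 vehicle library. Peony lowered 6 genes, among them HSPB1 (-0.28 ± 0.09), CDC37 (-0.18 ± 0.06), CACYBP (-0.18 ± 0.06), STIP1 (-0.16 ± 0.04) and HSPA9 (-0.16 ± 0.04), and raised HSPA1B (0.22 ± 0.07; the pair summed, 0.08 ± 0.06, did not pass). Its replicates were far apart, with HSPB1 at 290 and 362 CPM. Without replicate 1 the count was 1 and HSPB1, CDC37, CACYBP and STIP1 stood at -0.13, -0.10, -0.14 and -0.12, none passing. It was 3 without vehicle replicate 2, where CDC37 (-0.17), CACYBP (-0.15) and HSPA1B (0.19) were lost, and the HSPB1 call was lost, at -0.28, without any 1 vehicle library. HSPA1B was also lost, at 0.20, without peony replicate 1.

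High against low dose called 1 gene in each of these 3 extracts, where 0.653%, 0.943% and 5.90% of all genes changed. The calls of HSPA8 with ginseng (0.15) and HSP90AB1 with angelica (0.18) were lost with no filter and with only the groups compared. HSPA8 was higher with ginseng (0.16 ± 0.04), at 1496 to 1542 CPM with the high dose, a call lost without any 1 of high replicates 1, 2 and 3 or low replicates 2 and 3 (0.14 to 0.17). HSP90AB1 was higher with angelica (0.18 ± 0.04), at 1907 and 1923 against 1733 and 1648 CPM, a call lost without either high replicate (0.19 and 0.17) or low replicate 2 (0.14), while 13 genes were called without low replicate 1. HSPA1A was lower with peony (-0.34 ± 0.07; the pair summed, -0.28 ± 0.06), at 144 and 155 against 200 and 177 CPM. Without high replicate 1 or low replicate 1 that call was lost, at -0.29 and -0.25, and without high replicate 2 the count was 5.

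Lower doses of the extracts left most of the list near vehicle. The 6 medium-dose comparisons gave 12 calls and the 6 low-dose comparisons 10 calls over 36 genes each, where 5.63% and 2.01% of all gene tests were called. At the medium dose, 7 of the 12 calls were with licorice, 1 with ginseng (0.569% of all genes), 1 with angelica (2.91%: 1.47% higher and 1.44% lower) and 3 with peony (2.55%: 1.56% higher and 0.988% lower). Poria and atractylodes had no part in them, where 1.47% (0.430% higher and 1.04% lower) and 1.06% of all genes changed. At the low dose, 4 calls were with licorice, 2 with angelica (1.75% of all genes) and 4 with peony (5.23%), beside backgrounds of 0.419% with poria, 0.804% with atractylodes and 0.592% with ginseng. Leaving out vehicle replicates 1, 2 and 3 in turn gave 6, 6 and 7 calls for the medium dose and 6 each for the low dose. The largest rises among them were those of the inducible HSP70 pair at low doses of the extracts in the last set: HSPA1B had 153 and 138 CPM with angelica low and 154 and 145 CPM with peony low, against 106 to 118 in vehicle, at 0.39 ± 0.06 (adjusted p = 0.000265) and 0.43 ± 0.06 (adjusted p = 2.61e-05). HSPA1A rose by 0.32 ± 0.07 and 0.30 ± 0.07 in the same libraries, and the pair summed by 0.35 ± 0.06 in each. Without angelica low replicate 1 the HSPA1B rise was 0.32 and did not pass. These groups share their sample set with higher doses of the same extracts, which had less: 124 CPM with angelica high and 129.5 CPM with peony high. Between high and low dose, the summed pair differed with peony, as given above, and the change with angelica (-0.22 ± 0.06, adjusted p = 0.0713 in edgeR's quasi-likelihood test) did not pass.

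For 3 genes the vehicle stood at an end of the order of all 22 groups. HSPA1B had its lowest mean in vehicle (111 CPM) and its highest with LY294002 (165 CPM), and it was called higher in 10 of the 21 comparisons with vehicle, lower in none. The sum of HSPA1A and HSPA1B did not have its lowest mean in vehicle (264.6 CPM): it was 260.5 CPM with atractylodes medium and 262.7 CPM with atractylodes high. The sum was called higher in 7 of the 21 comparisons, and in none lower. HSPB1 (396 CPM) and BAG3 (81.7 CPM) had their highest means in vehicle, and were called lower in 8 and 6 comparisons, higher in none. Neighbouring groups in the order overlapped the vehicle or lay close to it: HSPA1B reached 111 CPM with wortmannin, HSPB1 391 CPM with angelica low (339 and 443 in its 2 libraries) and BAG3 79.2 CPM with poria high. The mean of the 6 low-dose groups differed from vehicle in 4 genes, against 5.35% of all genes (2.36% higher and 2.99% lower): HSPA1B was higher by 0.23 ± 0.05, and BAG3, HSP90AB1 and STIP1 were lower by 0.20 ± 0.05, 0.11 ± 0.03 and 0.10 ± 0.03. Without vehicle replicate 1 this count was 0, and without vehicle replicate 3 it was 1. As the vehicle forms a set of its own in the sample codes, a property of these 3 libraries and an effect shared by all treatments cannot be told apart. A DMSO percentage is recorded for the vehicle only, so a difference in solvent cannot be told apart from them either. The calls of these genes against vehicle carry that limit.

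Across the 22 group means, TRiC subunits ran in parallel, while HSF1-driven genes as a list did not run in parallel with one another. Pearson's r of mean log2 CPM between pairs of TRiC subunits had a median of 0.95 (0.92 to 0.99 over 28 pairs). Between pairs of HSF1-driven genes the median was 0.19 (-0.42 to 0.88 over 66 pairs). Between HSF1-driven genes and TRiC subunits it was 0.33 (-0.46 to 0.96 over 96 pairs), with 42 pairs above 0.5. The 3 drug groups lie far from the others for TRiC and weigh heavily in these values, which describe the 22 groups and carry no test. Several genes of other roles followed TRiC closely, with a median r of 0.95 for HSPD1, 0.93 for HSP90AA1 and FKBP4, and 0.92 for DNAJA1, PTGES3 and HSPE1. Of these, HSP90AA1 and DNAJA1 are on the HSF1-driven list. From that list CHORDC1 (0.86), DNAJB4 (0.81) and HSPB1 (0.72) also ran with TRiC. HSPA8 (0.38), HSPH1 (0.16), DNAJB1 (0.14) and CRYAB (-0.22), on the same list, had lower values. HSPA1B (-0.41), HSPA1A (-0.26) and BAG3 (-0.12), HSF1-driven as well, did not follow TRiC. Nor did DNAJB6 (-0.43), HSF2 (-0.31) and HSPA9 (-0.11). Among all genes tested, the 5 whose group means were most like the sum of HSPA1A and HSPA1B were ABCA2 (r = 0.86), SGSM3 (0.84), SPPL2B (0.83), GLB1L (0.83) and MAU2 (0.82), over 22 groups.

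**Figure D4:**
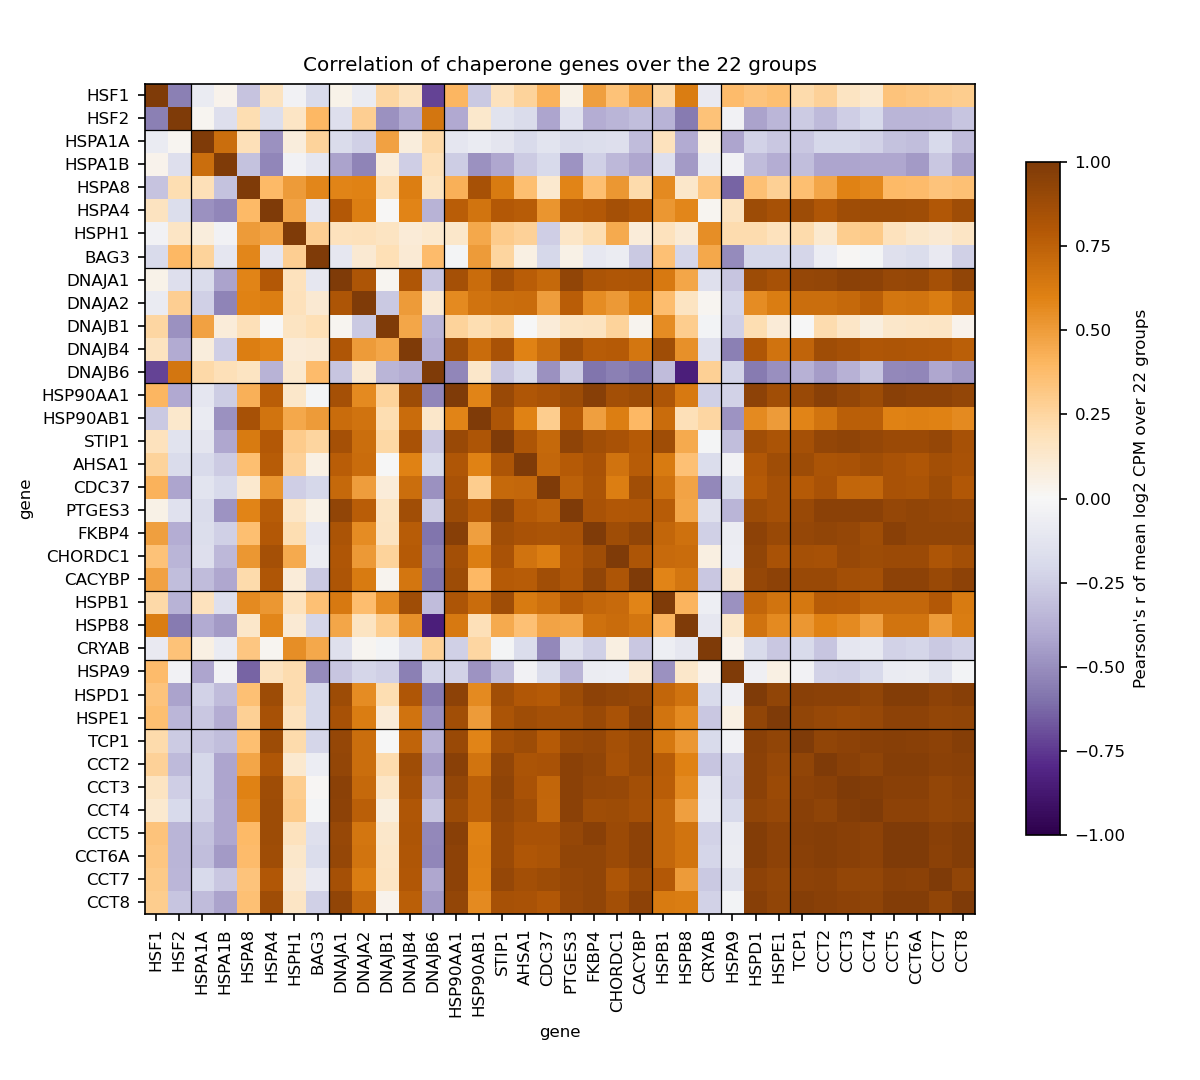
Pearson's r (colour, brown positive, purple negative) between the mean log2 CPM of 36 genes over 22 groups, with genes in the same order by role on both axes. The TRiC block at the lower right is brown throughout (0.92 to 0.99), HSP90AA1, FKBP4, HSPD1 and HSPE1 join it, and HSPA1A, HSPA1B, DNAJB6 and HSPA9 stay pale or purple against it.

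The promoter stretches shown above were picked from genes that moved in different ways, so they cannot show whether letters and direction go together. HSP90AA1, CHORDC1, HSPD1 and HSPA8, each with a run of 3 units, fell with thioridazine, while DNAJB6, with a run of 3 as well, rose with each drug. DNAJA1 and HSP90AB1, whose stretches are not shown, also held a run of 3. Their means with thioridazine were below vehicle (218 against 260 and 1328 against 1826 CPM). HSPA9 and TCP1, each with a single pair, rose and fell with thioridazine. This is a description of letters and changes side by side, and binding of HSF1 was not measured.

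Other chaperone and co-chaperone genes, taken from lists beyond the 36, gave the following counts. Of 25 tested genes of further heat shock families, 3 rose and 11 fell with wortmannin, 5 and 11 with LY294002, and 7 and 12 with thioridazine. Of all genes 15.4% rose and 16.4% fell with wortmannin, 19.4% and 19.9% with LY294002, and 24.6% and 23.8% with thioridazine, so that the 7 rises of 25 lay near the share over all genes. HSPA2, a testis-enriched HSP70, rose by 0.47 ± 0.06 with wortmannin and HSPA4L, an HSP110, fell by 0.83 ± 0.08 with thioridazine. Of 15 further co-chaperones, 1 rose and 8 fell, 2 and 6, and 5 and 6 in the same order: TTC4 fell by 0.36 ± 0.04 with wortmannin and by 0.33 ± 0.04 with LY294002, and FKBP5, an immunophilin induced by glucocorticoids, by 0.57 ± 0.09 with thioridazine. Chaperones of the endoplasmic reticulum fell in 6 and 5 of 9 cases with wortmannin and LY294002 (0 and 1 rose) and rose in 5 of 9 with thioridazine (1 fell), where DNAJB9 rose by 0.55 ± 0.09. With ginseng, angelica and peony at the high dose 8 of those 9 fell and none rose, beside 4.20%, 3.53% and 10.4% of all genes lower.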

How the data were processed

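Gene-level expected counts of 60 libraries were estimated by the authors with RSEM and deposited as 1 table. Per the submitters' processing notes, RSEM 1.3.3, STAR 2.7.3a, Trim Galore 0.6.5 and FastQC 0.11.9 were used with the GRCh38 build. No source used here gives the strand setting. Of 279 columns of the table, 219 were not used. Of the values, 9.48% were not whole (tolerance 1e-06), and all were rounded. Totals ran from 19.45 to 30.87 M per library, with a median of 26.05 M.

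Genes were filtered with filterByExpr (minimum count 10, minimum total 15), leaving 17919, and scaled by TMM. One edgeR quasi-likelihood model (edgeR 4.0.16, limma 3.58.1, R 4.3.3) was fitted to all 22 groups, with 30 contrasts, a biological coefficient of variation of 0.051, a median of 13.4 prior degrees of freedom and Benjamini-Hochberg adjustment over all genes tested, at a threshold of 0.05. The SE is the absolute log2 fold change divided by the square root of F. The scripts were tested on simulated data. Gene positions are from GENCODE 29, and promoter windows from RefSeq on GRCh38.p14. Reads of genes that share sequence or overlap may have been divided by estimation.

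The 36 genes and all lists were chosen with earlier results of these data known. Values by library are given for the called genes among the 5 largest rises and 5 largest falls of each drug or high-dose comparison, and for the largest rise and fall of the others, where treated and control libraries did not overlap and a group mean reached 1 CPM. HSF1, HSF2, HSPA1A, HSPA1B, HSP90AA1, DNAJB1, HSPB1 and TCP1 could be named anywhere, and from the other lists the 2 largest called changes. Further members were named to complete a role and were chosen after their values were seen. Alternatives were RLE size factors, no filter, a replicate block, only the groups compared, DESeq2 1.42.0, the HSPA1A and HSPA1B counts added, leaving out each library and, chosen after seeing the data, leaving out 5 libraries named in earlier work on these data.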

Additional observations from a re-analysis of the deposited data

Results flagged for a closer look

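HSP90AB1, the constitutive cytosolic HSP90, was higher at the high than at the low dose of angelica (0.18 ± 0.04) and lower with licorice (-0.25 ± 0.04), changes 0.43 apart on the log2 scale. The angelica call was lost without either high replicate (0.19 and 0.17), without low replicate 2 (0.14) and with no filter on low counts (0.18). CRYAB, a small heat shock protein at about 1 CPM or less, was higher at the high dose of poria (1.00 ± 0.26) and lower with licorice (-0.75 ± 0.27), changes 1.74 apart. The poria call was lost without high replicate 1 (0.94), without low replicate 3 (0.84) and with no filter (0.99). For each gene these were the highest and lowest changes among the 6 extracts, looked at because their calls were opposite, so the differences are descriptions and no p is given for them.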

How the results depend on the processing

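Counts of genes called with each drug against vehicle stayed within 1.5 times under every alternative run, and those of most extract comparisons did not. Fitted on only the groups compared, the high dose called 14 genes with poria, 1 with atractylodes, 10 with ginseng and 16 with angelica, the medium doses 29 and the low doses 16 in sum, the mean of the low doses 2, and high against low dose 0 with atractylodes, ginseng and angelica. With no filter on low counts, the high dose called 5 with poria and 7 with licorice, and high against low dose 4 with poria, 0 with atractylodes and ginseng, 2 with angelica and 3 with peony. DESeq2 gave 16 calls for the low doses and 2 each for high against low dose with angelica and peony. Without 5 libraries named in earlier work on these data (angelica low 2, licorice medium 3, ginseng low 1, peony high 1 and atractylodes high 1, by group and replicate), an alternative chosen after seeing the data, the high dose called 7 with angelica and 2 with peony, the medium doses 26, the low doses 20, and high against low dose 0 with atractylodes and angelica. The main model did not pair same-numbered libraries. Between vehicle and treated groups, r of their deviations ran from -0.06 to 0.05, and within a set from -0.10 to 0.22 (median 0.01). These values cannot show whether such libraries were handled together. A replicate block moved high against low dose to 2 calls with atractylodes and 2 with peony, and ended the call of TCP1 with atractylodes (0.14).

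Leaving out 1 library at a time gave 25 to 26 calls with wortmannin, 26 to 30 with LY294002, 27 to 29 with thioridazine, 4 to 8 for wortmannin against LY294002 and 17 to 20 for thioridazine against LY294002. At the high dose it gave 5 to 7 with poria, 2 to 12 with atractylodes, 7 to 11 with licorice, 1 to 3 with ginseng, 0 to 1 with angelica and 1 to 9 with peony. The medium doses gave 6 to 13, the low doses 6 to 12 and their mean 0 to 5. High against low dose gave 5 to 7 with poria, 0 to 6 with atractylodes, 3 to 5 with licorice, 0 to 1 with ginseng, 0 to 13 with angelica and 0 to 5 with peony. Medians of the HSF1-driven list ranged from -0.07 to -0.05 with wortmannin, -0.18 to -0.10 with LY294002, -0.28 to -0.23 with thioridazine, 0.03 to 0.07 with poria, -0.04 to 0.04 with atractylodes, -0.11 to -0.08 with licorice, 0.06 to 0.10 with ginseng, 0.09 to 0.12 with angelica and -0.01 to 0.02 with peony. Medians of TRiC ranged from -0.30 to -0.26, -0.34 to -0.29 and -0.41 to -0.34 with the drugs, 0.06 to 0.11 with poria, 0.05 to 0.18 with atractylodes, -0.07 to -0.03 with licorice, -0.02 to 0.03 with ginseng, 0.05 to 0.09 with angelica and -0.13 to -0.04 with peony.

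A list median counted as reversed where its sign changed and it moved by at least the standard deviation of the treated libraries' medians. The HSF1-driven median with atractylodes ran from -0.04 to 0.04 on leaving out 1 library and did not meet that rule. Directions reversed for the HSF1-driven median with peony, at -0.01 with no filter, without vehicle replicate 1 or without peony replicate 2. Without the 5 libraries that median was 0.00, which is no reversal. Other reversals were the TRiC median with ginseng (0.03 without vehicle replicate 2) and HSPA1A with thioridazine (0.12 with the counts of both copies added). Without HSPA1A and HSPA1B the HSF1-driven median was -0.23 with LY294002, -0.12 with licorice and 0.03 with ginseng. Where the filter, the samples fitted or the list was changed, fewer or other genes and libraries entered by construction; other causes were not tested. The depth and the 2 or 3 libraries a group limit what can pass: the smallest called change with a drug was 0.10 (DNAJB6, thioridazine).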
